A study of Mus musculus with 9 samples.

Results

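The genes described here are 4 members of the plasminogen activation system, taken as the rows with the symbols Plau, Plaur, Plat and Serpine2 among the 31405 linear genes measured. All 4 were present and all 4 passed the filter on low values. The cells were mesenchymal stem cells of mouse bone marrow, a commercial stock of stromal cells, kept for 7 days in 3 conditions with 3 libraries each. The PM group grew in proliferation medium, a DMEM-based medium with fetal bovine serum. The OM group grew in osteogenic medium, which holds dexamethasone (a synthetic glucocorticoid) at 100 nM, ascorbic acid at 0.2 mM and β-glycerophosphate at 10 mM. The C2S group received the same osteogenic medium plus dicalcium silicate (a bioactive ceramic) at a dose that the labels do not tie to the sequenced cells. No strain, age or genotype is named in the sources used here, and all groups share the same cell stock. Nothing in the labels tells if the 3 libraries within a group were grown as separate cultures, and p-values then reflect only the spread between these libraries, which may be technical.

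Plasminogen is a circulating zymogen, made mainly by the liver, that is cut into the broad-acting protease plasmin by either of the activators urokinase and tissue-type plasminogen activator. Plau encodes urokinase, Plaur its receptor, which is held on the cell surface by a lipid anchor and concentrates the protease there, and Plat encodes tissue-type plasminogen activator. Serpine2 encodes protease nexin-1, a secreted serpin that traps thrombin, urokinase and tissue-type activator in inactive complexes. In bone and marrow the system is known for breakdown of fibrin and matrix, for release of bound growth factors and for cell movement.

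The sequences that the Serpine2 and Plaur results refer to are given here first. All 3 circular RNAs of Serpine2 in the circRNA tables end in the same exon, exon 2 of the 9 exons of the longest coding transcript in GENCODE M21, which holds the start codon 22 bases into the exon. Their back-splice junctions, on the minus strand of chromosome 1 in mm10, are written 5′ to 3′ with the last 30 bases of the donor exon in lower case and the first 30 bases of exon 2 in capitals. The donor exon is exon 4 in circ_1366 (chr1:79810554-79821557), exon 8 in circ_779 (chr1:79796826-79821557) and exon 3 in circ_4577 (chr1:79816728-79821557), and every end falls on an annotated exon boundary.
circ_1366: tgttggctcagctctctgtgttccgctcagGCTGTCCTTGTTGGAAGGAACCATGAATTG
circ_779: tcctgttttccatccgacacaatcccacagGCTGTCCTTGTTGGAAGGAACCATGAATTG
circ_4577: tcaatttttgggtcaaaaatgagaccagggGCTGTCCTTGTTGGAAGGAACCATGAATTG

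Promoter windows of RefSeq (build GRCm38.p6), from 250 bases before to 50 bases after the transcription start, matched 2 of the 4 members. The Plaur window (chr7:24462233-24462532, plus strand) is shown with its match to the AP-1 motif TGANTCA in capitals, since Plaur was measured beside the AP-1 genes. The Serpine2 window (chr1:79858616-79858915, minus strand) is shown with its matches to the Sp1 box GGGCGG in capitals, as an example of a GC-rich promoter of the same gene set.
Plaur: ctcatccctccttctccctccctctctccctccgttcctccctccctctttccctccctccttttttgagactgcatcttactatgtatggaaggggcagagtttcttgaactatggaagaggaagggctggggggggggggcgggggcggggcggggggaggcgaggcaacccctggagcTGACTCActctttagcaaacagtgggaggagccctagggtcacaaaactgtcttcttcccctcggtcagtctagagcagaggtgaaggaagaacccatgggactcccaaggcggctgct
Serpine2: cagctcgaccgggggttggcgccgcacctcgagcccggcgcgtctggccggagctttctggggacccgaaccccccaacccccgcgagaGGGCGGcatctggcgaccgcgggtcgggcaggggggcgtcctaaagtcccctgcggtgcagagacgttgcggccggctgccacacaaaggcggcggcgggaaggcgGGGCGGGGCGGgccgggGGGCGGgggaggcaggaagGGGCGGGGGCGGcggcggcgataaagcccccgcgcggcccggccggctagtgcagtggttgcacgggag

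Searched on both strands, the AP-1 motif occurred 1 time in the Plaur window, starting 69 bases before the transcription start, and 0 times in the Serpine2 window. It occurs in 7.81% of all 32851 promoter windows. The Sp1 box occurred 3 times in the Plaur window and 6 times in the Serpine2 window, where adjoining boxes share bases or abut, and it occurs in 35.7% of all windows. The Ets core CCGGAA, the glucocorticoid receptor motif AGAACA and the TATA box TATAAA had 0 matches in either window and occur in 14.9%, 19.0% and 13.6% of all windows. A match describes letters in the window and is not a measured binding site.

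Between 29581822 and 38764027 reads stood behind the linear values of a library, and between 13691 and 20769 junction reads behind its circRNA values. Levels are in FPKM, reads scaled to transcript length and to library depth, and group values are mean ± SD with n = 3. Fold changes are log2 differences of FPKM + 1 with standard errors from limma, 1 fit over 9 libraries and 13049 genes, at an adjusted p under 0.05. The 12 stromal markers summed to 2391 to 2446 FPKM in PM, 1700.3 to 1832 in OM and 1820.1 to 1921 in C2S, and Ly6a (542 to 988 FPKM), Pdgfra (110.5 to 146) and Col1a2 (304 to 1018) were high in every library. Eng, Nt5e and Thy1, which are also used to define these cells, stayed at or below 1.39, 2.92 and 1.21 FPKM. Of the 11 stromal markers tested, 1 was higher (Ly6a) and 9 lower in OM against PM. In C2S against OM 3 were higher and 1 lower, and in C2S against PM 2 were higher and 7 lower. Over all tested genes 54.8%, 22.0% and 56.0% were called in these comparisons. Col1a2 fell from 977 ± 36.2 FPKM in PM to 347 ± 36.8 in OM (log2 change -1.49 ± 0.074). The 7SK RNA gene Rn7sk made up 28.8% to 36.1% of all FPKM in a library.

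Urokinase rose from PM to OM and again from OM to C2S. Plau (ENSMUSG00000021822, chromosome 14, positions 20836660 to 20843385, mm10) stood at 45.9, 48.6 and 40.7 FPKM in PM replicates 1 to 3. In OM it stood at 56.4, 62.9 and 60.2 FPKM, and in C2S at 121, 112 and 116 FPKM. Every OM library lay above every PM library and every C2S library above every OM library, so the order was PM, OM, C2S with no overlap at either step. The group levels were 45.1 ± 4.01, 59.8 ± 3.30 and 116 ± 4.53 FPKM. OM was higher than PM by 0.40 ± 0.069 on the log2 scale (95% interval 0.25 to 0.56, limma adjusted p = 0.00096). C2S was higher than OM by 0.95 ± 0.069 (0.79 to 1.10, limma adjusted p = 9.78e-05), the 72nd highest log2 change of the 13049 tested genes in that comparison. C2S was higher than PM by 1.35 ± 0.069 (limma adjusted p = 3.69e-07), a mean level 2.58 times that of PM. These values rested on 2822 to 9763 reads for Plau per library.

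The urokinase receptor was higher in C2S than in either other group. Plaur (ENSMUSG00000046223, chromosome 7, positions 24462484 to 24475968) stood at 8.41, 9.80 and 7.12 FPKM in PM, at 9.89, 9.57 and 8.42 in OM and at 17.7, 17.1 and 18.2 in C2S. The PM and OM libraries overlapped, while all C2S libraries lay above them. OM exceeded PM by 0.13 ± 0.098 on the log2 scale (95% interval -0.09 to 0.35), which missed the threshold (limma adjusted p = 0.284). Without PM replicate 2, the highest PM library, that difference was 0.233 (adjusted p = 0.0494), and the other alternatives reached an adjusted p of up to 0.793. C2S exceeded OM by 0.86 ± 0.098 (0.64 to 1.08, limma adjusted p = 0.000718), rank 97 of the 13049 genes from the highest change. Against PM the log2 rise in C2S was 0.99 ± 0.098 (limma adjusted p = 2.89e-05). Within PM, Plau and Plaur had the same library order (replicate 2, then 1, then 3), and PM replicate 3 had the highest Rn7sk share of its group at 35.7%. The part of that share in these levels was not tested. At 423 to 1226 reads per library, Plaur was the least deeply covered of the members.

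Tissue-type plasminogen activator fell against PM in both other conditions, where urokinase rose. Plat (ENSMUSG00000031538, chromosome 8, positions 22757727 to 22782844) stood at 76.8, 80.4 and 80.5 FPKM in PM, at 55.6, 57.9 and 58.6 in OM and at 55.6, 51.0 and 51.4 in C2S. All PM libraries lay above the rest. It fell in OM against PM by 0.46 on the log2 scale (SE 0.045, limma adjusted p = 3.02e-05), from 79.2 ± 2.08 to 57.4 ± 1.55 FPKM. C2S, at 52.6 ± 2.57 FPKM, differed from OM by -0.12 ± 0.045 (95% interval -0.22 to -0.02) and missed the threshold (limma adjusted p = 0.0833). The C2S libraries lay below the OM libraries, although C2S replicate 1 and OM replicate 1 were nearly equal. Without C2S replicate 1 the difference was -0.162 (adjusted p = 0.049), and the other alternatives reached an adjusted p of up to 0.237. C2S was lower than PM by 0.58 (SE 0.045, limma adjusted p = 5.99e-06).

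The inhibitor Serpine2 carried the highest level of the members and changed chiefly with osteogenic medium. Serpine2 (ENSMUSG00000026249, chromosome 1, positions 79794197 to 79861180) stood at 111, 116 and 115 FPKM in PM, at 266, 263 and 255 in OM and at 279.7, 296 and 292 in C2S. The 3 groups did not overlap. OM exceeded PM by 1.19 ± 0.042 on the log2 scale (95% interval 1.10 to 1.28, limma adjusted p = 3.78e-08), from 114 ± 2.79 to 261 ± 5.60 FPKM. C2S, at 289 ± 8.51 FPKM, exceeded OM by 0.15 ± 0.042 (0.05 to 0.24, limma adjusted p = 0.0367), a rise of 1.11 times in mean level. That call was lost under 10 of 15 alternatives, with adjusted p between 0.0361 and 0.123, among them leaving out PM replicate 2, any OM library or any C2S library. C2S exceeded PM by 1.34 ± 0.042 (limma adjusted p = 1.6e-08). Serpine2 FPKM were scaled to 3393 bases, the length of a retained-intron transcript, whereas the longest coding transcript has 2210 bases, and scaling to the coding length would raise its level by the same factor in every library.

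**Figure D1:**
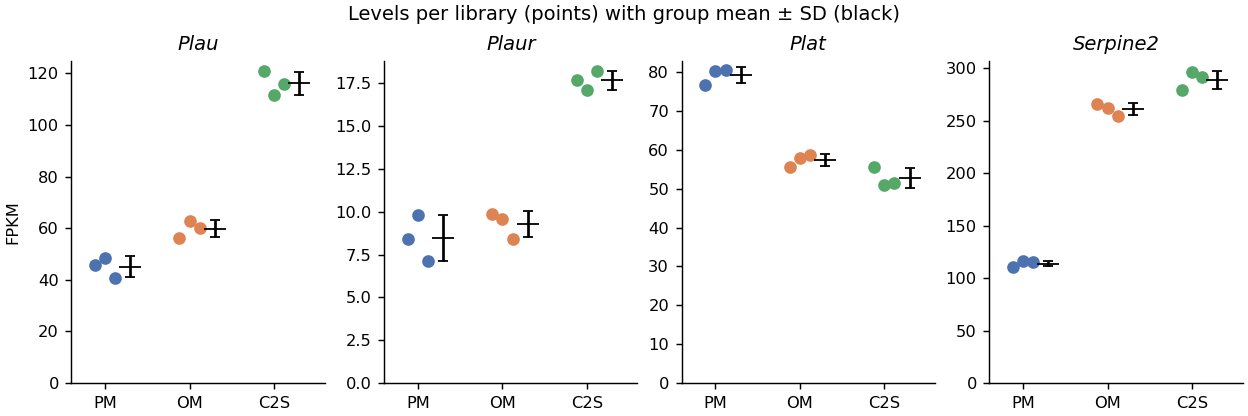
Levels in FPKM (vertical axes, from 0) of Plau, Plaur, Plat and Serpine2 in the PM, OM and C2S groups (horizontal axes). Points are libraries, and black marks are group means with SD. Plau and Plaur are highest in C2S at 116 and 17.7 FPKM, Plat is highest in PM at 79.2 FPKM, and Serpine2 is at 114 FPKM in PM against 261 and 289 FPKM in the other groups.

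Read together by comparison, the members were called in unequal patterns. In OM against PM 2 were higher (Plau, Serpine2), 1 was lower (Plat) and 1 did not pass (Plaur), where 54.8% of all tested genes were called, 27.1% higher and 27.7% lower. In C2S against OM 3 were higher (Plau, Plaur, Serpine2) and 1 did not pass (Plat), where 22.0% of tested genes were called, 10.6% higher and 11.5% lower. In C2S against PM 3 were higher and 1 lower, where 56.0% were called, 27.6% higher and 28.4% lower. With most genes called in both comparisons with PM, the count of members called there is not a result about the members. The comparisons share libraries, so their values are not independent of each other. Scaling to an equal sum without Rn7sk moved the split of all calls in OM against PM from 3542 higher and 3609 lower to 2559 and 4363, and in C2S against PM from 3605 and 3706 to 2695 and 4325. Under that scaling the 4 members kept their directions in all comparisons.

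**Figure D2:**
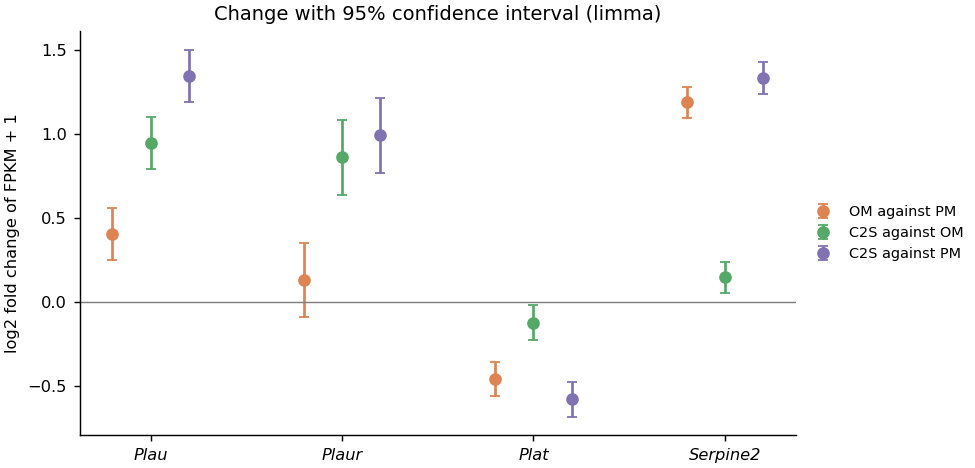
Log2 fold change of FPKM + 1 (vertical axis) for Plau, Plaur, Plat and Serpine2 (horizontal axis) in OM against PM, C2S against OM and C2S against PM, as points with 95% confidence intervals from limma. Plau and Plaur have their wide step in C2S against OM (0.95 and 0.86), Serpine2 in OM against PM (1.19), and Plat lies below 0 throughout.

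Ratios of FPKM within a library describe the balance between members without depending on the scaling between libraries. The Plau to Plat ratio was 0.597, 0.605 and 0.506 in PM, 1.01, 1.09 and 1.03 in OM and 2.17, 2.19 and 2.26 in C2S. Tissue-type activator RNA thus exceeded urokinase RNA per length in every PM library, and the order in FPKM was turned in every OM and C2S library. Which of the 2 is higher in OM rests on the lengths used, 2342 bases for Plau and 4042 for Plat. In reads, Plat exceeded Plau in OM replicates 1 to 3 (8069 against 4736, 9066 against 5714 and 7225 against 4298). Other lengths would change the ratio by the same factor in every library. The Plau to Serpine2 ratio was 0.396 ± 0.0363 in PM, 0.229 ± 0.0151 in OM and 0.402 ± 0.0276 in C2S. For that ratio the C2S libraries (0.377 to 0.432) overlapped the PM libraries (0.354 to 0.419), and OM lay below both. The Plat to Serpine2 ratio was 0.696 ± 0.00342 in PM, 0.220 ± 0.0103 in OM and 0.182 ± 0.0144 in C2S. Urokinase and its receptor varied less in proportion, as the Plau to Plaur ratio was 5.38 ± 0.386, 6.47 ± 0.729 and 6.57 ± 0.238 in PM, OM and C2S.

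**Figure D3:**
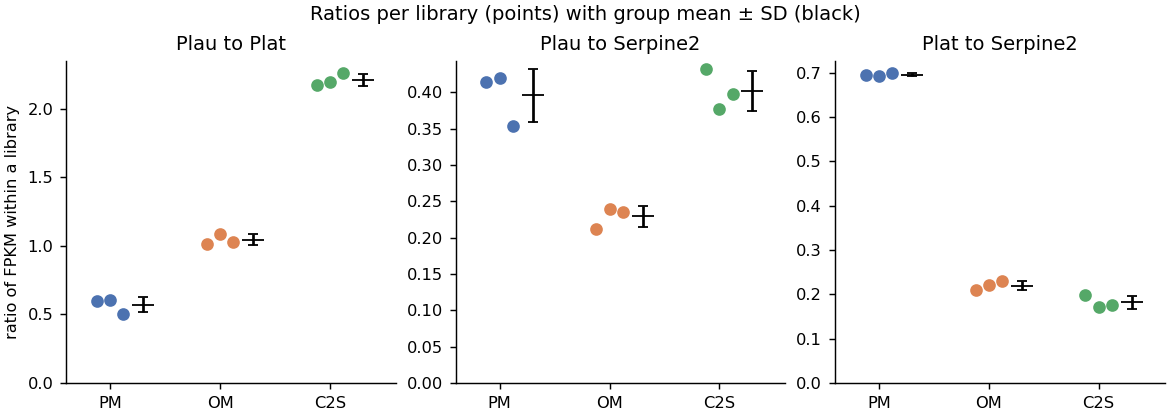
Ratios of FPKM within a library (vertical axes, from 0) for Plau to Plat, Plau to Serpine2 and Plat to Serpine2 in the PM, OM and C2S groups (horizontal axes). Points are libraries and black marks are group means with SD. Plau to Plat climbs from 0.569 in PM to 2.21 in C2S, Plau to Serpine2 is lowest in OM at 0.229, and Plat to Serpine2 is highest in PM at 0.696.

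Circular RNAs, closed loops made by back-splicing, were listed for 1 of the 4 members, Serpine2. The junction joining exon 4 to exon 2 (circ_1366) was read 11, 6 and 3 times in OM and 5, 9 and 4 times in C2S, and was unlisted in all 3 PM libraries. The junction joining exon 8 to exon 2 (circ_779) was read 3 times in OM replicate 1 and 3, 3 and 4 times in C2S, and was unlisted elsewhere. The junction joining exon 3 to exon 2 (circ_4577) was read 2 times in C2S replicate 3 and listed nowhere else. The smallest listed value was 2 reads, so a junction missing from a library's table may have had 0 reads or 1 read there, or may have failed the authors' calling. Summed over the junctions, Serpine2 had 0 listed reads beside 37393 linear Serpine2 reads in PM, 23 beside 93299 in OM and 30 beside 97990 in C2S. Per 10000 linear reads this was 2.47 in OM (exact Poisson 95% interval 1.56 to 3.70) and 3.06 in C2S (2.07 to 4.37), intervals that overlap and cover counting error only. The OM libraries were uneven at 4.32, 1.74 and 1.14, and without OM replicate 1 the OM value was 1.48 (0.676 to 2.80).

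Neither tested Serpine2 circRNA passed limma over the 2898 circRNAs listed in at least 3 libraries. The fit was made on log2(RPM + 111.7), where RPM is junction reads scaled to the circRNA total of the library. For circ_1366 OM exceeded PM by 1.90 ± 0.47 (limma adjusted p = 0.0636, where 1.55% of circRNAs were called) and C2S exceeded PM by 1.97 ± 0.47 (limma adjusted p = 0.0508, where 1.66% were called). C2S against OM gave 0.07 ± 0.47 (limma adjusted p = 0.994), where 0% of circRNAs were called and 54 higher and 97 lower of 2898 had an unadjusted p under 0.05. The unadjusted p of circ_1366 in limma was 0.00116 in OM against PM and 0.000871 in C2S against PM. Neither circ_1366 nor circ_779 was listed in a PM library, so both entered the fit only through OM and C2S libraries. With all their PM values set to 0, a change against PM could only be a rise. The p-values against PM are therefore no support for a rise. For circ_779 C2S differed from PM by 1.43 ± 0.46 (limma adjusted p = 0.172) and from OM by 1.03 ± 0.46 (limma adjusted p = 0.901).

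**Figure D4:**
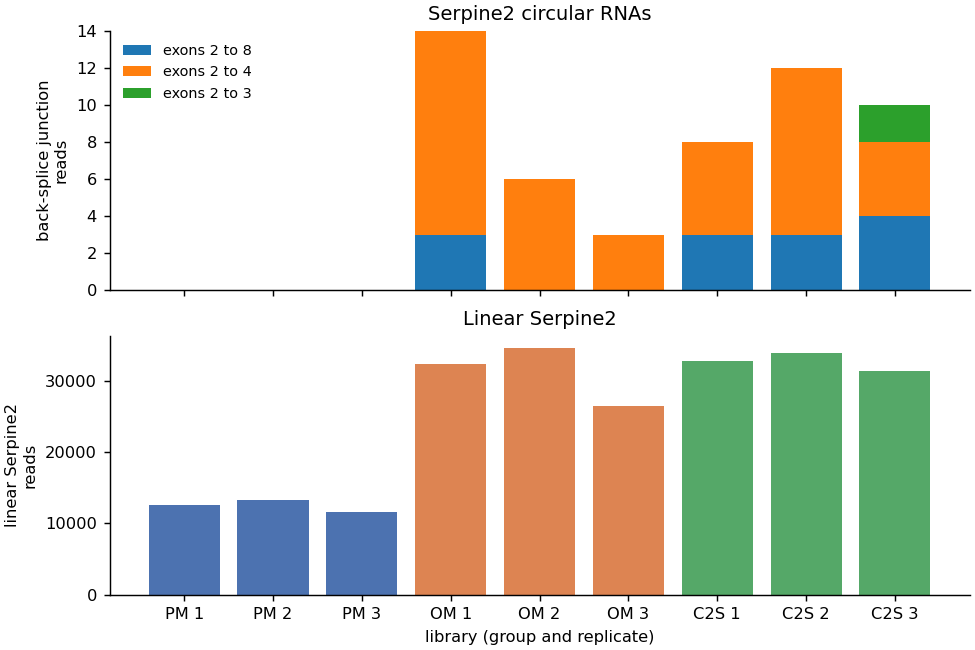
Back-splice junction reads of the Serpine2 circular RNAs, stacked by the exons they join (upper panel, vertical axis in reads), and linear Serpine2 reads (lower panel, vertical axis in reads) in each library (horizontal axis). The 3 PM libraries have 0 listed junction reads with 11547 to 13305 linear reads, and the others have 3 to 14 junction reads with 26386 to 34533 linear reads.

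The other genes of the pathway were taken from 6 lists of 65 genes by role, of which 61 were in the tables and 42 passed the filter. In OM against PM 12 of the 42 were higher, 18 lower and 12 did not pass, with a median log2 change of -0.11 against 0.0028 over all tested genes. In C2S against OM 12 were higher, 5 lower and 25 did not pass, with medians of 0.082 and -0.0071. In C2S against PM 14 were higher, 21 lower and 7 did not pass, with medians of -0.16 and -0.0017. The shares called were 71.4%, 40.5% and 83.3% in the order given, beside 54.8%, 22.0% and 56.0% of all tested genes.

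Upstream proteases were barely detected in these cells. None of the 6 listed genes of that role in the tables passed the filter, and the plasminogen gene Plg was not analysed here. Hgfac, a serum protease that activates hepatocyte growth factor, was the highest of them at 0.216 ± 0.0687 FPKM in OM. All group means of the others were lower still.

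Among the other inhibitors described here, 1 gene passed the filter on low values. The neuronal serpin gene Serpini1, an inhibitor of tissue-type activator, stood at 1.20 ± 0.308, 1.34 ± 0.190 and 1.09 ± 0.248 FPKM in PM, OM and C2S and passed in no comparison. Serpinb2, which encodes a serpin that inhibits urokinase, reached 0.728 FPKM and Serpinf2, which encodes the plasmin inhibitor antiplasmin, 0.187 FPKM at most, and neither was tested.

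Genes for plasminogen receptors and other plasminogen-binding proteins went both ways in osteogenic medium. Of 5 tested genes 3 rose and 2 fell in OM against PM, 0 of 5 passed in C2S against OM by limma (1 higher and 1 lower of 5 at an unadjusted p under 0.05), and 2 rose and 2 fell in C2S against PM. Over all tested genes 54.8%, 22.0% and 56.0% were called in these comparisons. S100a10, the light chain of the annexin A2 complex that binds plasminogen and tissue-type activator, rose from 404 ± 47.0 to 738 ± 78.0 FPKM (0.87 ± 0.097, limma adjusted p = 7.22e-05). Its partner Anxa2 fell from 357 ± 19.8 to 294 ± 16.6 FPKM (log2 change -0.28 ± 0.059). Clec3b, the gene of the plasminogen-binding protein tetranectin, rose by 1.17 ± 0.13. Plgrkt, a transmembrane plasminogen receptor, rose from 39.5 ± 1.48 to 44.6 ± 0.466 FPKM (0.17 ± 0.039, limma adjusted p = 0.00479), and this call was lost at an equal sum without Rn7sk (0.116). Eno1, an enolase that also serves as a plasminogen receptor, fell by 0.17 (SE 0.041), although reads of its near-identical copies could have been split between them in the authors' counting.

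Among clearance receptors and integrin partners of the urokinase receptor, 2 of 11 tested genes rose, 7 fell and 2 did not pass in OM against PM, where 27.1% of all tested genes were higher and 27.7% lower. The risers were the integrin chain genes Itga5 (0.52 ± 0.12) and Itga3 (0.33 ± 0.098), named after their values were seen. Igf2r, which binds the urokinase receptor and plasminogen besides mannose 6-phosphate and IGF2, fell from 127 ± 9.17 to 28.2 ± 3.23 FPKM (-2.14 ± 0.079, limma adjusted p = 5.23e-08). Vldlr, an endocytic receptor of serpin-protease complexes, fell from 45.8 ± 1.88 to 20.6 ± 0.339 FPKM (-1.11 ± 0.057). Itgav (-0.77 ± 0.077), the receptor chaperone gene Lrpap1 (-0.54 ± 0.063) and Mrc2 (-0.51 ± 0.062), whose product is the urokinase receptor-associated collagen receptor, fell as well. Lrp1, the main endocytic receptor of these complexes, stood at 102 ± 22.3, 94.2 ± 18.9 and 121 ± 19.2 FPKM in PM, OM and C2S and passed in no comparison.

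In C2S against OM 4 of those 11 rose, 1 fell and 6 did not pass, beside 10.6% higher and 11.5% lower over all tested genes. Itgb3, the beta chain of the vitronectin receptor, rose from 1.27 ± 0.133 to 2.85 ± 0.272 FPKM (0.76 ± 0.077, limma adjusted p = 0.000457), and the fibronectin receptor chain Itga5 from 13.2 ± 1.89 to 20.4 ± 2.03 (0.60 ± 0.12). Itga3 rose by 0.33 ± 0.098 (limma adjusted p = 0.0399), a call lost under 7 of 15 alternatives with adjusted p from 0.0168 to 0.119, among them leaving out OM replicate 1, OM replicate 3 or any C2S library. Vldlr fell further, by 0.33 (SE 0.057). In C2S against PM 3 rose and 7 fell (27.6% and 28.4% over all tested genes), among them Itga5 (1.12 ± 0.12), Igf2r (-2.07 ± 0.079), Vldlr (-1.44 ± 0.057) and Lrpap1 (-0.70 ± 0.063).

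Of 13 tested genes for substrates of plasmin or of its activators, 3 rose and 7 fell in OM against PM, where 54.8% of all tested genes were called. In C2S against OM 4 rose and 0 fell by limma (7 higher and 0 lower at an unadjusted p under 0.05), where 22.0% of all tested genes were called. In C2S against PM 5 rose and 6 fell, where 56.0% were called. The 3 that rose in OM were the thrombin receptor gene F2r (0.80 ± 0.060), Pdgfc (0.27 ± 0.065) and Pdgfd (0.18 ± 0.051), named after their values were seen because the count is small. Hgf, whose precursor urokinase can cut into its active form, fell from 29.0 ± 1.53 FPKM in PM to 8.63 ± 0.533 in OM (-1.64 ± 0.067) and stood at 8.41 ± 0.705 in C2S. The fibronectin gene Fn1 (-1.50 ± 0.17), Vegfa (-1.32 ± 0.085) and the gelatinase gene Mmp9 (-1.19 ± 0.085) fell in the same comparison. Mmp9 was low, at 1.64 ± 0.163 FPKM in PM and 0.154 ± 0.0208 in OM. It passed the filter on low values only through the PM libraries, so against PM only a fall could be called. With C2S, the stromelysin gene Mmp3, whose proenzyme plasmin activates, rose from 0.985 ± 0.0626 to 3.11 ± 0.110 FPKM (1.05 ± 0.086, limma adjusted p = 0.000166). Outside C2S, Mmp3 reached 1 FPKM only in PM replicate 2 (1.26) and OM replicate 1 (1.05). It thus passed the filter on low values only through the C2S libraries, where it is high. Its p-values are therefore no support for a rise, although the counts above include it. In C2S against OM, Tgfb1 rose from 0.824 ± 0.0670 to 1.80 ± 0.266 FPKM (0.61 ± 0.090) and Mmp2 by 0.47 ± 0.082. Bdnf rose by 0.15 ± 0.044 (limma adjusted p = 0.0399), a call lost under 9 of 15 alternatives, with adjusted p from 0.0229 to 0.133, including each setting without PM replicate 2, OM replicate 1, OM replicate 3 or any C2S library.

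AP-1 and Ets proteins are known to bind regulatory DNA of the urokinase gene in mouse and human cells, and their genes formed the last list. Of 12 tested genes 4 rose and 2 fell in OM against PM, 4 rose and 4 fell in C2S against OM, and 4 rose and 6 fell in C2S against PM. The shares called were 50.0%, 66.7% and 83.3%, beside 54.8%, 22.0% and 56.0% of all tested genes. The AP-1 gene Fosl1 followed the order of Plau, at 2.36 ± 0.493, 4.83 ± 0.219 and 15.9 ± 1.85 FPKM in PM, OM and C2S. The Ets genes Etv4 (3.02 ± 0.765, 5.60 ± 0.868 and 12.2 ± 0.783 FPKM) and Etv1 (0.324 ± 0.0124, 1.17 ± 0.191 and 2.63 ± 0.317 FPKM) had the same order. Etv1 was under 1 FPKM in every PM library and in OM replicate 3 (0.953). It passed the filter on low values only through the other OM libraries and C2S, so its calls are no support for a rise. Fos (-2.10 ± 0.13), Fosb (-1.71 ± 0.17) and Jund (-1.17 ± 0.22) fell in C2S against OM, and Fosl2 (-1.67 ± 0.070) fell in OM against PM. The part of these AP-1 and Ets factors in the Plau levels was not tested.

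**Figure D5:**
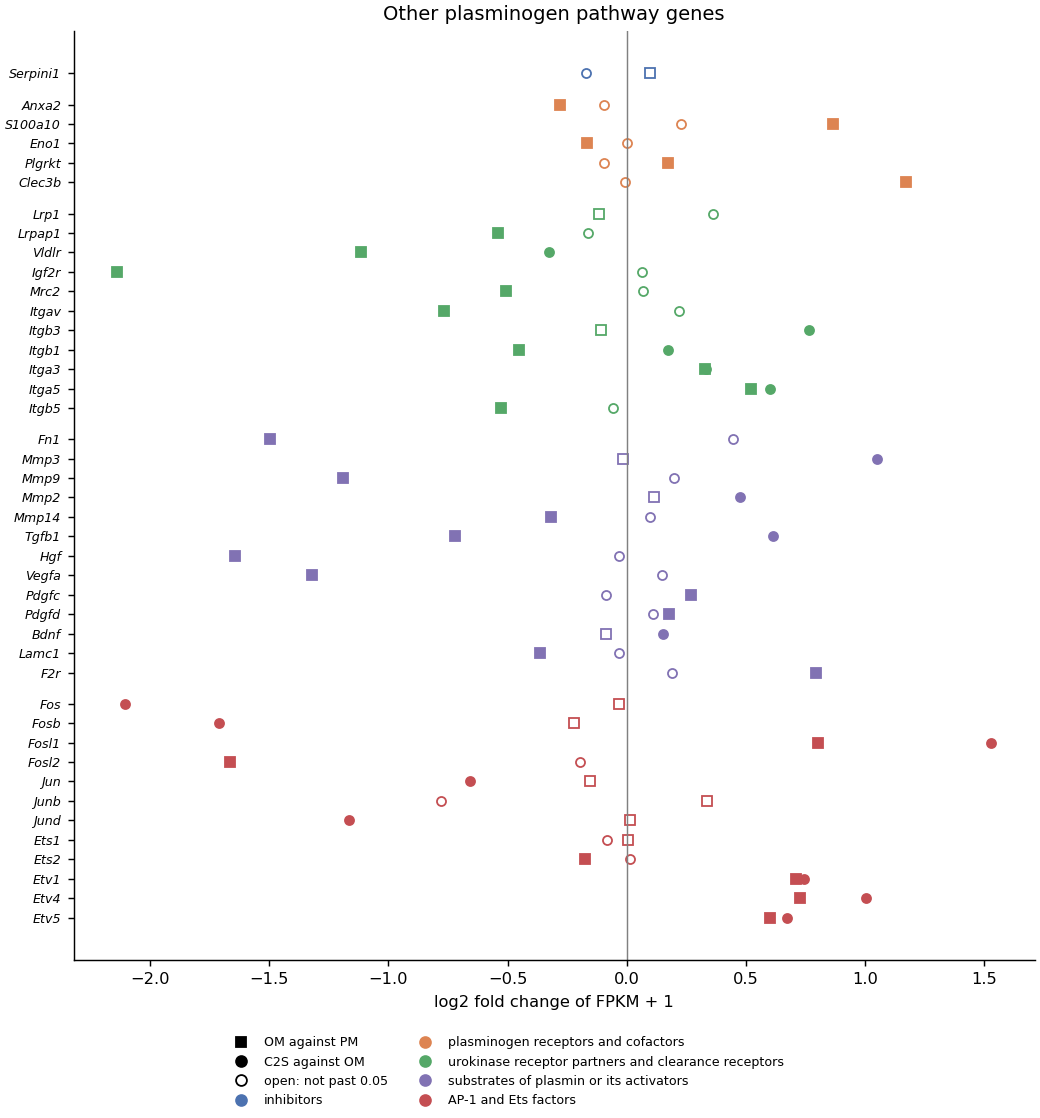
Log2 fold change of FPKM + 1 (horizontal axis) for the 42 tested genes of the other pathway lists (vertical axis, coloured by list), with squares for OM against PM and circles for C2S against OM, filled where the limma adjusted p was under 0.05. Receptor and substrate genes reach to -2.14 (Igf2r) in OM against PM, and Mmp3, Itgb3, Fosl1 and the Etv genes lie to the right in C2S against OM.

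Markers of other cell types that also carry urokinase or its receptor were followed beside these results. The summed FPKM of the leukocyte and macrophage markers was 18.3 to 20.6 in PM, 26.9 to 32.5 in OM and 37.6 to 44.2 in C2S, the same order as Plau. Cd14 made up most of it (11.5, 27.4 and 37.4 FPKM on average) and was higher in all 3 comparisons. The other 2 tested markers of that list fell in OM against PM, Lyz2 from 4.04 ± 0.704 to 0.410 ± 0.148 FPKM and Cd68 from 3.19 ± 0.197 to 2.03 ± 0.00659 FPKM. Of these, Lyz2 passed the filter on low values only through the PM libraries. The remaining 8 of the 11 markers in the tables stayed under 1 FPKM in every library, with the pan-leukocyte marker Ptprc and the macrophage marker Adgre1 at or below 0.0090 FPKM. The part of these markers' cells in the Plau and Plaur levels was not tested. The 6 neutrophil markers in the tables summed to at most 1.64 FPKM, mostly Camp (up to 1.25). Camp was the only 1 of them tested and was not called in any comparison. The 6 endothelial markers summed to 1.03 to 1.43, 2.04 to 2.45 and 2.73 to 2.82 FPKM in PM, OM and C2S, with Tek (up to 1.59) higher in all 3 comparisons, Kdr up to 1.18 and Cdh5 at or below 0.0169. Outside C2S, Tek reached 1 FPKM only in OM replicates 1 and 3 (1.03 and 1.04). It passed the filter on low values only through these and the C2S libraries, so its calls are no support for a rise. The 3 megakaryocyte and platelet markers summed to 4.15 to 4.90, 3.204 to 4.0045 and 2.52 to 2.87 FPKM, nearly all from Itga2b, which was lower in all 3 comparisons. In bulk RNA, fewer cells of a type and less RNA per cell cannot be told apart.

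By Pearson correlation of log2(FPKM + 1) over the 9 libraries, the most similar of 8396 genes with a mean FPKM of at least 5 were named for each member. These 9 libraries fall into 3 groups, so the values describe likeness of group pattern and have no test. For Plau they were Lyar, Aen and Azin1, each at r = 0.992 when rounded, and 137 genes exceeded 0.95. Azin1, the antizyme inhibitor gene, stood at 22.8 ± 1.27, 27.6 ± 1.63 and 43.0 ± 1.95 FPKM in PM, OM and C2S. For Plaur they were Ddx21 (0.993), Zfp281 (0.992) and Ctdp1 (0.990). Ddx21, a nucleolar RNA helicase gene, stood at 30.2 ± 1.80, 32.1 ± 1.23 and 43.3 ± 0.422 FPKM. For Plat they were the tropomyosin gene Tpm2 (0.996), Cstf2t (0.994) and Zfp651 (0.994), and for Serpine2 Trim47 (0.999), the selenoprotein gene Selenop (0.998) and the glutamate receptor gene Gria1 (0.998). The numbers of genes that exceeded 0.95 were 80 for Plaur, 526 for Plat and 511 for Serpine2. Selenop stood at 129 ± 7.53, 621 ± 23.9 and 765 ± 6.82 FPKM in PM, OM and C2S.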

How the data were processed

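Total RNA of 9 libraries was measured per the labels. The submitters' processing notes name STAR, HTSeq, RSEM and mm10, without roles or versions. The linear tables deposited by the authors name no unit in their headers and were read as FPKM deposited by the authors, because scaling each value by the gene's longest GENCODE M21 transcript gave whole reads, within 0.1 reads, for 98.3% to 98.6% of a library's low values. All 36 values of the members did so within 0.01 reads. For circRNAs the deposited values were read as RPM, whole multiples of 1 step per library within 0.001 reads, and unlisted entries were set to 0. The labels and notes do not state if counting was by strand, and overlap of other annotated genes with the members was not tested.

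The 13049 genes reaching 1 FPKM in 3 or more libraries entered the test on log2(FPKM + 1), which understates changes of low genes, with limma 3.58.1 (R 4.3.3, mean trend, Benjamini-Hochberg adjustment), group as the only factor. The fit was checked on simulated data. Members, lists and tests were chosen with earlier results of these data known. Named genes were the members, 9 set pathway genes, up to 4 called genes per list and comparison with the highest absolute change, 3 genes most like each member, and all circRNAs of members. A further gene of the lists is not reported here. The circRNA fit was added after values were seen. Alternatives were a pseudocount of 0.1, no filter, median-of-ratios scaling, an equal sum without Rn7sk, only the 2 groups compared, a replicate block and leaving out each library.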

Additional observations from a re-analysis of the deposited data

How the results depend on the processing

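Of 180 recomputed values of the members (12 results under 15 alternatives), 168 kept their direction and their side of the threshold and none reversed. Serpine2 in C2S against OM lost its call without the filter on low values (0.146, adjusted p = 0.0629), at an equal sum without Rn7sk (0.154, 0.0624), with only the 2 groups compared (0.146, 0.056) and on leaving out a library, over which its log2 change ran from 0.129 to 0.170 and its limma adjusted p up to 0.123. Leaving out a library moved Plaur in OM against PM between 0.027 and 0.233 and Plat in C2S against OM between -0.162 and -0.100, each with 1 call gained. The number of genes called in C2S against OM was 2877 and ran from 1414 to 3226 when a library was left out, with 1887, 1731 and 1414 without C2S replicates 1, 2 and 3. Of 870 recomputed values of named pathway genes 847 stayed the same. Lrp1 in OM against PM (-0.274 to 0.058) and Serpini1 in C2S against PM (-0.172 to 0.029) changed sign on leaving out a library, and Plgrkt in C2S against PM was -0.009 at an equal sum without Rn7sk. The cause of these changes was not tested.

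Replicate numbers were not taken to pair the libraries, since the labels do not say that a number marks a shared culture, batch or day. In their deviations from group means, same-numbered pairs correlated at -0.092 to 0.395, with 4 of 9 above 0.1. By the same measure 5 of 9 libraries correlated best with their own number. These values do not settle if the numbers pair the libraries. With the replicate block the numbers of genes called were 7378, 2958 and 7515 in OM against PM, C2S against OM and C2S against PM, Serpine2 in C2S against OM had an adjusted p of 0.0476, and 75 of 76 results kept their call, the exception being Bdnf in C2S against OM (0.062). Depth limits the circRNA values, at 2 to 11 reads for a listed Serpine2 junction. Leaving out 1 library, a setting chosen after seeing the data, gave 1.48 to 2.99 Serpine2 junction reads per 10000 linear reads in OM and 2.81 to 3.37 in C2S.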
